A study of Mus musculus with 14 samples.

Results

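The genes described here encode enzymes of the Krebs cycle and nuclear-encoded subunits of the respiratory chain and ATP synthase. They were chosen as a list of 51 gene symbols, and all 51 were found among the 17890 genes of the deposited table and had enough counts to be tested. The list holds 19 cycle enzymes, among them the 4 subunits of succinate dehydrogenase, which is also complex II. It further holds 2 enzymes that feed or drain the cycle, 15 subunits of complex I, 5 of complex III, 5 of complex IV and 4 of complex V, and cytochrome c. The last groups named, complexes I, III, IV and V, together count 29 genes.

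The libraries came from bone marrow cultures of male C57BL/6J mice, and the labels call the cells bone marrow-derived macrophages. Mice of the diabetic group (D, 4 libraries) had been given streptozotocin, which destroys insulin-producing beta cells, by intraperitoneal injection at 42 to 45 mg/kg on each of 5 days. They counted as diabetic above 16.9 mmol/L blood glucose and were kept hyperglycaemic for 6 weeks. A fast of 12 h is recorded for the diabetic group and not for the healthy group. Mice of the healthy control group (M, 4 libraries) were of the same strain and sex. Mice of both groups were 8 weeks old at allocation, and marrow progenitors of both spent 7 days in culture at 5 mmol/L glucose with M-CSF, the growth factor that drives macrophage differentiation. The comparison is therefore between cultures after a week at the same glucose level, and cells from before culture are not among the samples. The table names its columns D and M only; D is the initial of diabetic, M was taken as the healthy group because it was the one left over, and a reversed meaning of the letters would reverse every direction below. Whether the 4 libraries of a group are 4 animals is not in the labels, so p-values measure the spread between these libraries, which may be technical. The 6 samples of a second phase (3 diabetic-trained, 3 untrained) are not analysed here.

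Library totals ran from 19048248 to 20028111 estimated counts. The labelled cell type was checked against marker genes, given as CPM (counts scaled to one library size, with TMM factors). All 11 macrophage markers were tested, 6 were higher in D and none was lower, and their summed level was 8997 to 14285 CPM in D and 6483 to 7367 CPM in M. The median log2 fold change of the macrophage list was 0.37. Mertk, a receptor of mature macrophages, averaged 0.7 CPM in D and 1.1 CPM in M, a low level in both groups. The 15 neutrophil markers summed to 42583 to 65898 CPM in D and 37296 to 39051 CPM in M, with 10 higher in D. The neutrophil list thus summed above the macrophage list in every library. These sums are over 15 and 11 genes and are not scaled by transcript length, so they do not give shares of cells. The 12 B lineage markers summed to 77.6 to 267 CPM in D and 1245 to 1624 CPM in M, with 10 lower in D. The 8 erythroid and megakaryocyte markers summed to 887 to 3781 CPM in D and 2848 to 5210 CPM in M, with 3 lower in D. Of the other lists, 6 of 7 mast cell and basophil markers, 4 of 6 T and natural killer markers and 5 of 12 proliferation genes were higher, and 3 of 6 dendritic markers were lower. By the same test 17.4% of all tested genes were higher and 17.3% lower in D, 34.7% together. The share of the erythroid and megakaryocyte markers that passed, 37.5%, was near that total. None of the tested markers was at 0 in any library. In bulk RNA, fewer cells of a type and less RNA per cell cannot be told apart. The part of these cell type markers in the results below was not tested.

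The Krebs cycle oxidises acetyl groups to carbon dioxide in the mitochondrial matrix and passes their electrons to NADH and, through succinate dehydrogenase, to ubiquinone. Complex I takes electrons from NADH, complex III passes them from ubiquinol to cytochrome c, and complex IV passes them to oxygen. Complexes I, III and IV pump protons, and complex V, the ATP synthase, lets them flow back to make ATP. In macrophages, inflammatory activation is known to interrupt the cycle at isocitrate dehydrogenase and succinate dehydrogenase, so that citrate, itaconate and succinate accumulate, whereas alternatively activated macrophages keep an intact cycle and rely on respiration.

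Few of these genes passed the test between D and M, and those that did differed by small amounts. In the edgeR quasi-likelihood fit over 12839 genes, 9 of the 51 (17.6%) had a Benjamini-Hochberg adjusted p under 0.05, whereas 34.7% of all tested genes did. Of the 9, 3 were higher in D, which 17.4% of all tested genes were, and 6 were lower in D, which 17.3% of all were. The higher ones were Idh1, Dld and Cs, all counted here with the cycle enzymes, although Idh1 acts in the cytosol and peroxisome. The lower ones were Idh3b, also a cycle enzyme, and Ndufa1, Ndufs3, Uqcrh, Cox6c and Atp5o, which are subunits of complexes I, III, IV and V. No member differed by more than 1.31-fold, and 2 of 51 (3.92%) differed by more than 1.25-fold, against 36.2% of all tested genes. The median absolute log2 fold change was 0.11 over the members and 0.23 over all tested genes. For 49 of the 51 the 95% interval of the difference lay within 1.5-fold in either direction, the exceptions being Pcx and Ndufa5. The D and M libraries did not overlap for 9 members, namely Dlst and every called gene except Cox6c, and they did not overlap for 34.7% of all tested genes.

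The count of 9 rested on the whole set of libraries. It was 2 (1 higher and 1 lower) without D replicate 2, without M replicate 3 or without M replicate 4. It was 12 (3 higher and 9 lower) without D replicate 1, 9 (6 higher and 3 lower) without D replicate 3, 6 (4 higher and 2 lower) without D replicate 4, 5 (3 higher and 2 lower) without M replicate 1 and 6 (2 higher and 4 lower) without M replicate 2. The share called of all tested genes moved as well, from 34.7% with all libraries. It was 26.9% without D replicate 2, 28.7% without M replicate 3 and 26.7% without M replicate 4. In the order of the other fits above it was 41.3%, 30.8%, 26.8%, 27.6% and 27.3%. The scale used mattered for the split of directions too. With TMM factors 50.1% of all called genes were higher in D; with library totals alone 31.3% were, on the authors' FPKM scale 30.9% to 31.1%, and on their TPM scale 33.0% to 33.1%. Library totals moved the median of all genes by -0.10 on the log2 scale, and the members called were then 1 higher (Idh1) and 8 lower.

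**Figure D1:**
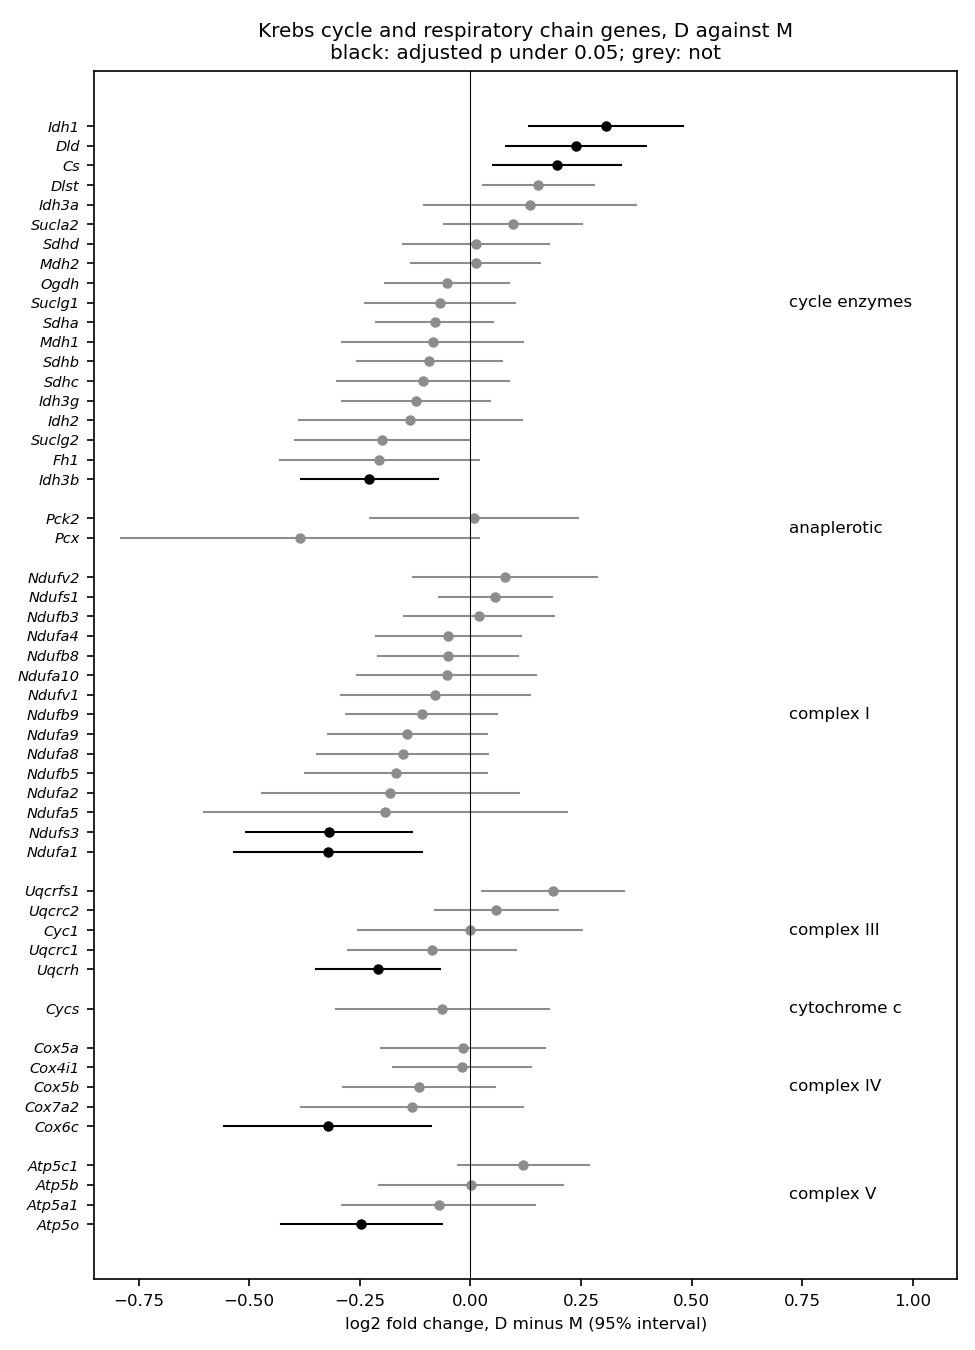
Log2 fold change, D minus M, of each of the 51 genes with its 95% interval, grouped by role; black points had an adjusted p under 0.05 and grey points did not. Both classes lie on both sides of 0, with 8 of 19 cycle enzymes and 7 of 29 subunits of complexes I, III, IV and V above it. The 5 called subunits of these complexes all lie below it.

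The sequences just upstream of 3 higher and of 3 lower called genes are shown as a description. Because the lower ones were chosen by a motif, the display cannot tell whether genes that moved together share sequence. The 3 higher genes are all that were called, and the 3 lower ones were chosen because they hold the CCGGAAG motif below; Ndufa1 and Atp5o, which are lower and lack it, are not printed. GA-binding protein, an ETS-family factor, is a known regulator of nuclear genes for the respiratory chain, and nuclear factor Y binds CCAAT boxes in many housekeeping promoters. Each line gives 160 bases before to 30 bases after the RefSeq start of the gene in GRCm38.p6, read 5′ to 3′ on the strand of the gene. Capitals mark exact matches, on either strand, of CCGGAAG (the GA-binding protein motif searched) or CCAAT (the nuclear factor Y motif searched).
Cs (chr10:128337567-128337756, plus strand): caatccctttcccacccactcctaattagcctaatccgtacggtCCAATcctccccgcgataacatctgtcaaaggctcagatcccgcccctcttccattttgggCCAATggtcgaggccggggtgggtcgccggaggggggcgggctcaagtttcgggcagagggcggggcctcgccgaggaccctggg
Idh1 (chr1:65186450-65186639, minus strand): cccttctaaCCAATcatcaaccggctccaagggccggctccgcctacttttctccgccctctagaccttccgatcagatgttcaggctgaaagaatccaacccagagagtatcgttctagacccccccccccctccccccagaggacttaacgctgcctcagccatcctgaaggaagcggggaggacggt
Dld (chr12:31351442-31351631, minus strand): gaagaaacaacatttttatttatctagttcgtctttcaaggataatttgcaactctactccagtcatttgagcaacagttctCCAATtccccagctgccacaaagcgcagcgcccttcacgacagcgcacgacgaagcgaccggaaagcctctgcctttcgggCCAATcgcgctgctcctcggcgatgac
Idh3b (chr2:130284422-130284611, minus strand): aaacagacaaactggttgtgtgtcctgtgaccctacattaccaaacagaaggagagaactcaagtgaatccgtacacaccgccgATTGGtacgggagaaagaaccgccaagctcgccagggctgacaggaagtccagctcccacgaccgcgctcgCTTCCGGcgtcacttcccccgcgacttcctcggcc
Ndufs3 (chr2:90904692-90904881, minus strand): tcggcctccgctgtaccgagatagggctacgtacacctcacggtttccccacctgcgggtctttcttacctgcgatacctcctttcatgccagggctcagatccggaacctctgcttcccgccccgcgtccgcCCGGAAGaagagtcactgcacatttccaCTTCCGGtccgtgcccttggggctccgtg
Uqcrh (chr4:116075041-116075230, minus strand): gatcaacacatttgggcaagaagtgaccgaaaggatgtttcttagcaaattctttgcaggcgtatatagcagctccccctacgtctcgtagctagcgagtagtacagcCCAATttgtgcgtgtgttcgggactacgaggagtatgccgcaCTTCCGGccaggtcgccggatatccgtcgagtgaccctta

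RefSeq promoters were at hand for 41 of the 51 genes and were searched over 300 bases. CCGGAAG was found in 7 of 41 (17.1%) and in 9.93% of 27025 mouse genes. Of the called genes, 3 of the 5 lower ones with a promoter held it (Idh3b, Ndufs3 and Uqcrh), and 0 of the 3 higher ones. CCAAT was found in 18 of 41 (43.9%) and in 41.1% of all genes, and in 3 of 3 higher and 2 of 5 lower called genes. Ndufa1 and Atp5o held neither motif, and Cox6c was not searched. Both strands were searched for each motif. The letters GCGCATGCG, a site of nuclear respiratory factor 1, were found in 4 of 41 (9.76%: Cycs, Ndufa8, Ogdh and Uqcrc1) and in 1.95% of all genes, and none of these 4 genes passed the test. TCAAGGTCA, a site of oestrogen-related receptor alpha, was found in 1 (Sdhd; 2.44% of members, 0.466% of all genes), AAGATGGCG, a site of Yin Yang 1, in 2 (Idh3g and Ndufa9; 4.88% of members, 1.64% of all genes), and GGGCGG, a site of specificity protein 1, in 25 (61.0% of members, 38.2% of all genes). CCGGAAG and CCAAT do not overlap in their letters, and a match describes the sequence, not binding.

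The called cycle enzymes lay in both directions, and 21.1% of the 19 were called, beside 34.7% of all tested genes. Of the 19, 3 were higher and 1 lower in D, 8 had a fold change above 0 and 11 below 0, and their median log2 fold change was -0.07, beside -0.03 over all tested genes. Idh1, the NADP-dependent isocitrate dehydrogenase of the cytosol and peroxisome (chr1:65158616-65186479), reached 181, 187, 226 and 183 CPM in D, against 161, 155, 155 and 156 CPM in M. Every D library was above every M library, and D replicate 3 stood well above the other D libraries. D and M differed by a log2 fold change of 0.31 ± 0.08 (SE; adjusted p = 0.0131, edgeR's quasi-likelihood test), and it passed under each of 24 alternative settings, with adjusted p between 0.00121 and 0.0433. Idh1 is not a step of the mitochondrial cycle itself but makes NADPH and oxoglutarate outside it.

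Dld, the dihydrolipoamide dehydrogenase shared by the pyruvate and oxoglutarate dehydrogenase complexes (chr12:31331562-31351471), had 143, 133, 126 and 133 CPM in D, against 117, 123, 108 and 105 CPM in M. The groups did not overlap, but the lowest D library and the highest M library were close. The log2 fold change was 0.24 ± 0.07 (SE; adjusted p = 0.0249, edgeR). The call ended without D replicate 2 (adjusted p = 0.0559), M replicate 3 (0.0739) or M replicate 4 (0.0818), and with library totals in place of TMM factors (adjusted p = 0.194). Dlst, the succinyltransferase of the same oxoglutarate complex, had 191, 181, 179 and 184 CPM in D and 168, 164, 161 and 167 CPM in M. Its groups did not overlap either, yet it missed the threshold (log2 fold change 0.15 ± 0.06, SE; adjusted p = 0.0583, edgeR). Under 4 of 24 alternatives Dlst passed as higher, among them DESeq2's size factors (adjusted p = 0.0338, edgeR). The remaining subunit, Ogdh, which decarboxylates oxoglutarate, had 194 to 213 CPM in D and 199 to 217 CPM in M and did not pass.

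Cs, citrate synthase, which joins acetyl groups to oxaloacetate in the first step of the cycle (chr10:128337727-128362482), had 285, 287, 294 and 271 CPM in D, against 267, 240, 249 and 236 CPM in M. The groups did not overlap, by a narrow gap between the lowest D and the highest M library, and the log2 fold change was 0.20 ± 0.07 (SE; adjusted p = 0.0407, edgeR). This call was the least stable of the 9. It ended under 14 of 24 alternatives, among them leaving out D replicate 2 or M replicate 2, 3 or 4 (adjusted p from 0.0867 to 0.122) and library totals (adjusted p = 0.269). The difference lay in one of the transcripts counted for the gene. The predicted transcript had 129, 135, 141 and 119 CPM in D and 81.4, 70.1, 100.2 and 73.3 CPM in M, so each D library exceeded each M library. The curated transcript had 156, 152, 153 and 151 CPM in D and 186, 170, 148 and 163 CPM in M, with overlapping groups. The predicted transcript took 44.1% to 47.9% of the gene's counts in D and 29.2% to 40.3% in M. Restricted to curated transcripts, Cs had a log2 fold change of -0.12 (adjusted p = 0.248), and restricted to its most abundant transcript one of -0.14 (adjusted p = 0.233), so the sign turned and neither passed.

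**Figure D2:**
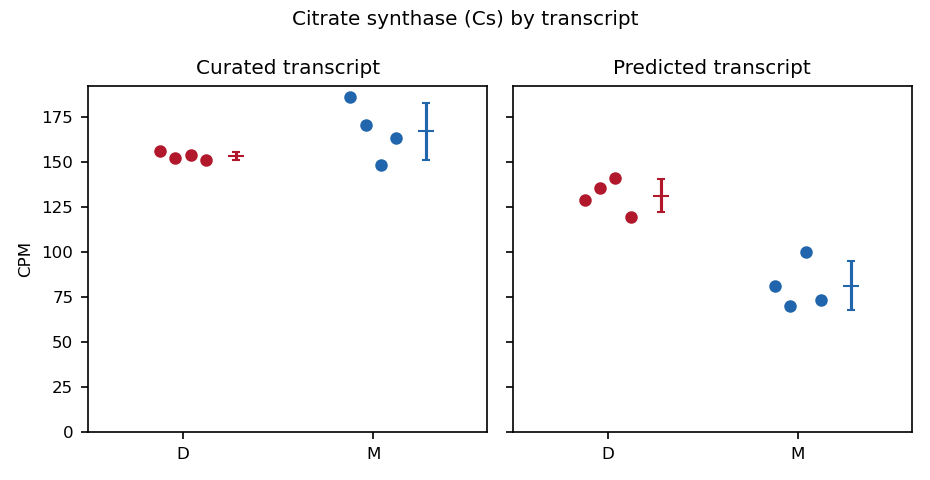
CPM of the curated and of the predicted Cs transcript in each of the 4 D and 4 M libraries, with means as horizontal marks and SD as error bars. The predicted transcript is higher in every D library than in any M library, whereas the curated transcript overlaps between the groups.

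Idh3b, a regulatory subunit of the NAD-dependent isocitrate dehydrogenase of the matrix (chr2:130279309-130284451), was the one cycle enzyme that was lower in D. It had 63.8, 58.9, 54.3 and 59.1 CPM in D, against 73.5, 64.6, 69.9 and 68.6 CPM in M. The groups did not overlap, though D replicate 1 came close to M replicate 2. D and M differed by a log2 fold change of -0.23 ± 0.07 (SE; adjusted p = 0.0281, edgeR), and leaving out D replicate 2, 3 or 4 or M replicate 1, 3 or 4 ended the call, with adjusted p from 0.0608 to 0.0806. The other subunits of this enzyme did not pass. Idh3a, the catalytic subunit, averaged 72.9 ± 11.1 CPM in D and 66.4 ± 5.53 CPM in M, and Idh3g, also regulatory, averaged 80.3 ± 6.48 CPM in D and 87.5 ± 5.50 CPM in M (SD, n = 4 each). Idh2, the NADP-dependent isocitrate dehydrogenase of mitochondria, averaged 79.2 ± 14.5 CPM in D and 87.0 ± 4.18 CPM in M and did not pass (adjusted p = 0.379, edgeR).

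Later steps of the cycle gave no call in the main fit. The subunits of succinate-CoA ligase had log2 fold changes of 0.10 (Sucla2), -0.07 (Suclg1) and -0.20 (Suclg2). Suclg2, which pairs with Suclg1 in the GTP-forming enzyme, passed there before adjustment only (adjusted p = 0.102, edgeR). After adjustment Suclg2 passed under 4 of 24 alternatives, among them library totals (adjusted p = 0.0476, edgeR). The 4 subunits of succinate dehydrogenase, Sdha, Sdhb, Sdhc and Sdhd, lay between -0.11 and 0.01, each with groups that overlapped, and their summed level was 414 ± 27.6 CPM in D and 433 ± 10.2 CPM in M (SD, n = 4 each). Fh1, fumarase, had a log2 fold change of -0.21 ± 0.10 (SE; adjusted p = 0.138, edgeR). Under 2 of 24 alternatives Fh1 passed as lower, among them the fit without D replicate 1 (adjusted p = 0.0209, edgeR). Mdh1, the cytosolic malate dehydrogenase, averaged 119 ± 14.8 CPM in D and 126 ± 9.56 CPM in M (SD, n = 4 each). Mdh2, the mitochondrial malate dehydrogenase and by TPM (a level per transcript length, scaled to one total per library) the most abundant cycle enzyme, had 227, 230, 201 and 217 CPM in D and 226, 212, 213 and 217 CPM in M. Those groups overlapped throughout, and the 95% interval of its log2 fold change was -0.13 to 0.16.

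Pcx, pyruvate carboxylase, which makes oxaloacetate from pyruvate (chr19:4510472-4621752), was the least abundant of the 51 genes and had the largest fold change. It had 3.52, 2.76, 2.48 and 3.18 CPM in D and 4.64, 2.95, 3.81 and 4.22 CPM in M. The groups overlapped, and the log2 fold change of -0.38 ± 0.18 (SE) did not pass (adjusted p = 0.126, edgeR). Pck2, the mitochondrial phosphoenolpyruvate carboxykinase, had 61.4, 44.2, 54.3 and 49.9 CPM in D and 59.3, 49.6, 47.0 and 52.7 CPM in M, again overlapping, with a 95% interval of -0.23 to 0.24. The span of the Pcx gene overlaps that of Lrfn4, also in the deposited table, by 3884 bases.

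Complex I had 2 lower members and no higher one among 15, with 12 of the 15 fold changes below 0 and a median of -0.11. Ndufs3, a subunit of the catalytic core in the matrix arm (chr2:90894627-90904721), had 34.1, 29.5, 25.9 and 30.9 CPM in D, against 37.6, 38.4, 38.0 and 36.4 CPM in M. Every D library lay below every M library, and the M libraries were close together. The log2 fold change was -0.32 ± 0.09 (SE; adjusted p = 0.0152, edgeR), and of 24 alternatives only the most abundant transcript alone ended the call (adjusted p = 0.0612). A processed pseudogene, Gm12251, is 98.6% identical to the Ndufs3 transcript over 792 bases, so the level of Ndufs3 is uncertain.

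Ndufa1, a small accessory subunit of the membrane arm (chrX:37187588-37191238), had 21.2, 17.3, 20.2 and 20.8 CPM in D, against 25.0, 21.7, 27.0 and 25.6 CPM in M. The groups did not overlap, but the highest D and the lowest M library were close. D and M differed by a log2 fold change of -0.32 ± 0.10 (SE; adjusted p = 0.0248, edgeR), and leaving out D replicate 2 or M replicate 1, 3 or 4 ended the call, with adjusted p from 0.0536 to 0.0728. It overlaps Rnf113a1, which is also in the table, by 17 bases, and whether the counting used strand is not given in the sources used here.

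The other 13 complex I genes did not pass. Among the most abundant, Ndufa4, which is also assigned to complex IV, had 65.9, 64.7, 54.3 and 60.9 CPM in D and 63.6, 61.6, 61.5 and 67.6 CPM in M. Ndufb8, an accessory subunit of the membrane arm, had 63.4, 59.5, 51.6 and 58.4 CPM in D and 60.0, 58.3, 60.8 and 62.2 CPM in M. In both genes the groups overlapped and D replicate 3 was the lowest library. Of the core subunits that bind NADH and pass its electrons on, Ndufv1, Ndufv2 and Ndufs1 had log2 fold changes of -0.08, 0.08 and 0.06, each with a 95% interval that includes 0. The accessory subunits Ndufa2, Ndufa5, Ndufa8, Ndufa9, Ndufa10, Ndufb3, Ndufb5 and Ndufb9 lay between -0.19 and 0.02. Ndufa5 varied most, with 17.9, 12.6, 8.39 and 13.2 CPM in D and 15.0, 15.3, 13.2 and 16.2 CPM in M.

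In complex III, 1 of 5 members was lower and none was higher. Uqcrh, the hinge protein that holds cytochrome c1 and cytochrome c together (chr4:116066965-116075070), had 98.2, 86.5, 97.5 and 94.8 CPM in D, against 108, 105, 112 and 110 CPM in M. Every D library lay below every M library. The log2 fold change was -0.21 ± 0.06 (SE; adjusted p = 0.0265, edgeR), and leaving out D replicate 2 or 4 or M replicate 3 or 4 ended the call, with adjusted p from 0.0670 to 0.0883. Uqcrfs1, the Rieske iron-sulfur protein, leaned the other way, with 96.2, 88.9, 87.5 and 81.9 CPM in D and 83.6, 75.8, 80.1 and 71.9 CPM in M. Its groups overlapped, and the log2 fold change of 0.19 ± 0.07 (SE) missed the threshold (adjusted p = 0.0684, edgeR). With the replicate number as a block it passed (adjusted p = 0.0318), as it did with DESeq2's size factors (0.0428) and without D replicate 4 (0.0451). Uqcrc1, a core protein, had 127, 103, 96.1 and 113 CPM in D and 122, 113, 115 and 117 CPM in M. Uqcrc2, the other core protein, and Cyc1, cytochrome c1, had log2 fold changes of 0.06 and -0.00, and the groups of Uqcrc1, Uqcrc2 and Cyc1 overlapped.

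Cycs, the mobile carrier cytochrome c, had 195, 177, 137 and 190 CPM in D and 163, 185, 185 and 197 CPM in M. The groups overlapped, and D replicate 3 was again the lowest of 8. The transcript has 4 near-identical copies elsewhere in the genome, among them Gm10053 (99.9% over 946 bases), so its level is uncertain.

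In complex IV, 1 of 5 members was lower and all 5 fold changes were below 0. Cox6c, an accessory subunit (chr15:35931976-35938246), had 72.2, 51.8, 51.4 and 58.0 CPM in D, against 79.1, 70.7, 71.1 and 70.9 CPM in M. D replicate 1 lay inside the range of M, and the other D libraries lay below it, while M replicate 1 stood above the other M libraries. D and M differed by a log2 fold change of -0.32 ± 0.11 (SE; adjusted p = 0.0371, edgeR), and leaving out any single library other than D replicate 1 ended the call, with adjusted p from 0.0633 to 0.105. Pseudogene copies of Cox6c are up to 97.0% identical over 231 bases. Cox4i1, a regulatory subunit that binds ATP, had 249, 234, 235 and 228 CPM in D and 266, 231, 229 and 232 CPM in M. Cox7a2, which takes part in contacts between complexes, had 82.6, 68.5, 56.8 and 67.4 CPM in D and 87.4, 68.4, 72.2 and 73.6 CPM in M. Both overlapped between the groups, as did Cox5a and Cox5b, which had log2 fold changes of -0.02 and -0.12. With DESeq2's size factors the small difference of Cox4i1 turned to the other side of 0. The span of the Cox7a2 gene overlaps that of Tmem30a, also in the deposited table, by 2482 bases.

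In complex V, 1 of 4 members was lower and none was higher. Atp5o, the oligomycin sensitivity conferring protein that ties the catalytic head to the peripheral stalk (chr16:91925223-91931630), had 94.8, 86.6, 71.5 and 81.5 CPM in D, against 97.9, 102, 98.1 and 98.6 CPM in M. Every D library lay below every M library, with D replicate 1 closest and D replicate 3 farthest. The log2 fold change was -0.25 ± 0.08 (SE; adjusted p = 0.0404, edgeR). Leaving out any single library other than D replicate 1 ended the call, with adjusted p from 0.0682 to 0.115, and so did DESeq2's size factors (0.0523). A processed pseudogene, Gm5436, is 97.0% identical over 643 bases, and a transcript of the protein-coding gene Donson is 100% identical over 287 bases. The subunits of the catalytic head did not pass. Atp5b, the catalytic beta subunit, had 915, 830, 668 and 785 CPM in D and 822, 783, 789 and 802 CPM in M. Atp5a1, the alpha subunit, had 610, 502, 434 and 520 CPM in D and 564, 513, 533 and 559 CPM in M. In both genes D held the highest and the lowest of the 8 values, the group means were close and the D libraries spread widely. Atp5c1, the gamma subunit of the rotor, had 220, 207, 190 and 212 CPM in D and 197, 194, 190 and 182 CPM in M, with overlap at the low end of D (adjusted p = 0.185, edgeR).

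**Figure D3:**
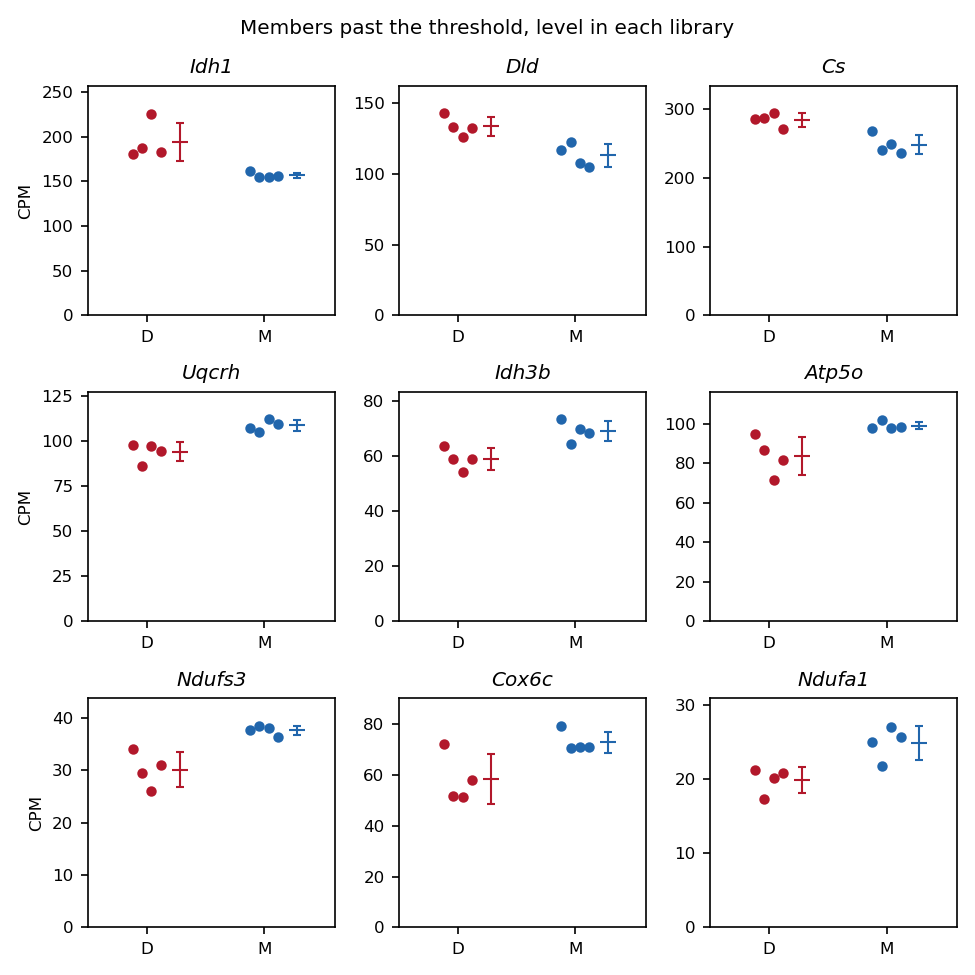
CPM of the 9 called genes in each library, with the D libraries left of the M libraries, means as horizontal marks and SD as error bars (n = 4 each). Idh1, Dld and Cs are higher in D, and Idh3b, Ndufa1, Ndufs3, Uqcrh, Cox6c and Atp5o are lower; with curated transcripts alone Cs turned to a lower value.

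Set side by side, the cycle enzymes had 3 higher and 1 lower of 19, and complexes I, III, IV and V had 0 higher and 5 lower of 29 (17.2%). That lower share was no more than the 17.3% of all tested genes. Of the cycle enzymes 21.1% were called in either direction, beside 34.7% of all tested genes. With complex II taken out, the cycle enzymes had 3 higher and 1 lower of 15, and without Idh1, which works outside the mitochondrial cycle, the higher ones were Dld and Cs. The mean difference in log2 CPM, D minus M, was -0.02 over the cycle enzymes and -0.09 over the 4 complexes. The median log2 fold changes were -0.07 over the cycle enzymes and -0.08 over the complexes, and the difference between the classes was not tested. Single libraries moved these values, and the share called of all tested genes ran from 26.7% to 41.3% in the same fits. Without D replicate 3 the median was -0.02 over the cycle enzymes (5 higher, 0 lower) and -0.000601 over the complexes (1 higher, 3 lower), and without D replicate 1 it was -0.07 over the cycle enzymes (3 higher, 3 lower) and -0.13 over the complexes (0 higher, 6 lower). With D replicate 2 left out, or M replicate 3, or M replicate 4, the cycle enzymes had 1 higher and 0 lower and the complexes 0 higher and 1 lower. Without D replicate 4 the cycle enzymes had 3 higher and 0 lower (median -0.02) and the complexes 1 higher and 2 lower. Without M replicate 1 the cycle enzymes had 3 higher and 0 lower (median -0.03) and the complexes 0 higher and 2 lower. Without M replicate 2 the cycle enzymes had 2 higher and 1 lower and the complexes 0 higher and 3 lower. Their summed levels were 2218 ± 104 CPM in D and 2167 ± 52.3 CPM in M for the cycle enzymes, and 3316 ± 332 CPM in D and 3418 ± 109 CPM in M for the complexes (SD, n = 4 each). On the TPM scale, which counts each transcript per length, the cycle enzymes summed to 2061 ± 185 in D and 2171 ± 26.3 in M, and the complexes to 5488 ± 674 in D and 6132 ± 111 in M. The sum of the cycle enzymes was thus higher in D by CPM and lower in D by TPM, and within the spread of the D libraries on both scales. The CPM values use TMM factors and the TPM values do not. The median log2 fold change of all tested genes was -0.03 with TMM factors. On the TPM scale it was -0.11 with a pseudocount of 1 and -0.12 with 0.1. The part of this scaling in the turn of the sum was not tested.

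By TPM, levels of different genes can be set in order. Atp5b was highest with 785 ± 128 TPM in D and 832 ± 10.9 TPM in M, followed by Cox4i1 with 611 ± 39.4 TPM in D and 658 ± 34.5 TPM in M (SD, n = 4 each). Atp5a1, Uqcrh, Atp5c1 and Mdh2 came next, at mean levels of 412, 379, 329 and 327 TPM over all 8 libraries, and Atp5c1 and Mdh2 differed by less than their spread. Of the called genes, Uqcrh had 339 ± 19.1 TPM in D and 418 ± 18.0 TPM in M, and Cox6c had 231 ± 44.5 TPM in D and 306 ± 10.9 TPM in M. Pcx was lowest, with 1.31 ± 0.241 TPM in D and 1.81 ± 0.308 TPM in M.

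Most genes of the list ranked the D libraries alike. D replicate 3 was the lowest D library for 40 of the 51 genes (78.4%), which it was for 35.8% of all tested genes, and it was the lowest of all 8 libraries for 36. D replicate 1 was the highest D library for 45 (88.2%; 34.3% of all tested genes), and M replicate 1 the highest M library for 33 (64.7%; 30.6% of all). The median coefficient of variation over the genes was 10.9% in D and 4.92% in M, and 45 of 51 genes varied more in D. Over all tested genes the medians were 11.9% in D and 8.40% in M, so D varied more there too. D replicate 3 had the highest neutrophil and macrophage marker sums of all libraries (65898 and 14285 CPM) and the lowest B lineage and erythroid sums (77.6 and 887 CPM). D replicate 1 had the lowest neutrophil sum in D (42583 CPM). The part of these marker levels in the library pattern was not tested. Leaving out D replicates 1 and 3 together, chosen after seeing the data, left 9 members called, 2 higher and 7 lower.

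**Figure D4:**
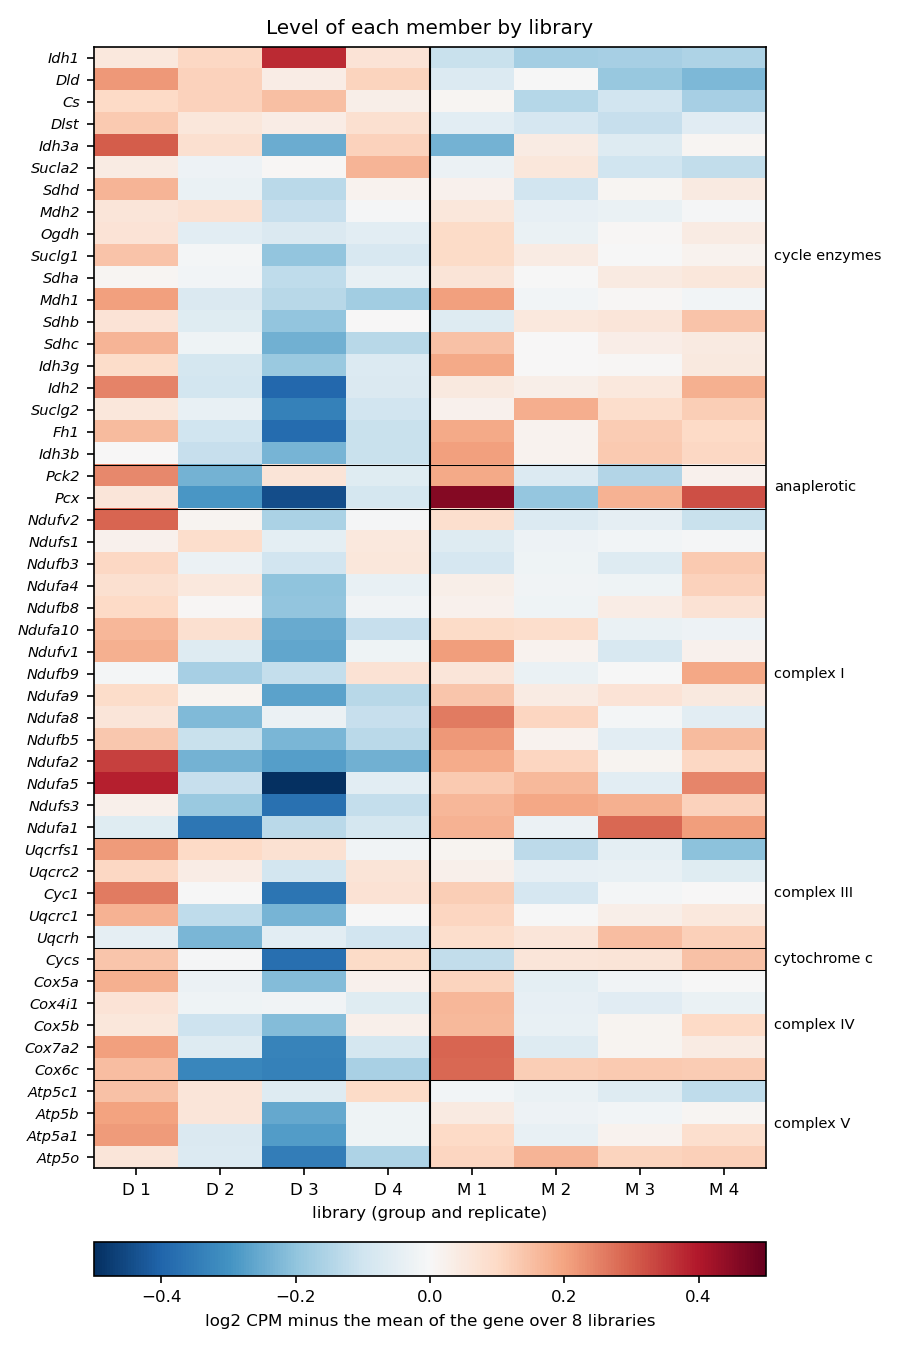
Level of each of the 51 genes in each library, as log2 CPM minus the mean of that gene over the 8 libraries; D libraries are left of M libraries and lines separate the roles. D replicate 3 is blue for most genes and red for Idh1, Cs and a few others, and D replicate 1 is mostly red.

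Transcript length differed between the classes of genes. Effective transcript length, computed from the deposited counts and FPKM, had a median of 0.724 kb over complexes I, III, IV and V, 1.91 kb over the cycle enzymes and 2.76 kb over 12106 tested genes. When those genes were split by length into 5 classes of equal size, 31 of the 51 members fell in the shortest class (up to 1.57 kb). All 6 lower members were among these 31 and none of the 3 higher ones. Of all genes in that class 16.8% were lower and 12.6% higher in D, so 6 lower of 31 is near the share of the class as a whole. The median log2 fold change of all genes was -0.08 in the shortest class, -0.04, -0.02 and -0.01 in the next ones and 0.01 in the longest. The 31 members of the shortest class had a median of -0.11. The part of transcript length in the calls was not tested.

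**Figure D5:**
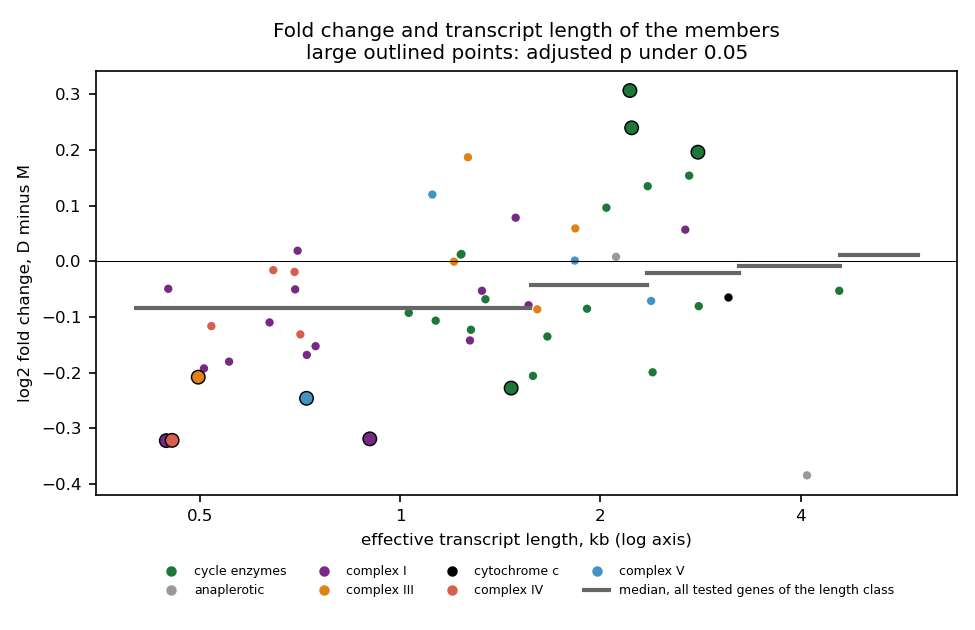
Log2 fold change, D minus M, of the 51 genes against effective transcript length in kb on a log axis, coloured by role, with the 9 called genes as large outlined points; grey lines are the medians of all tested genes in each of 5 length classes, drawn from 0.4 to 6 kb. The lower called genes lie in the shortest class, among 31 members, and the median of all genes there is -0.08.

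The subunits of the same complexes that the list leaves out were looked at next, as a list drawn up with earlier results of these data known. Of 47 tested, none was higher and 16 (34.0%) were lower in D, beside 17.3% lower of all tested genes, 40 had a fold change below 0 and the median log2 fold change was -0.19. Over the alternative settings 0 to 2 were higher and 7 to 23 were lower. Leaving out any single library other than D replicate 1 brought the lower ones to between 8 and 10, with 2 higher and a median of -0.11 without D replicate 3. Of all tested genes 1583 to 1883 were lower in those fits, against 2223 with all libraries. Their transcripts are shorter still, with a median of 0.600 kb, and 44 of the 47 were in the shortest class, which held 15 of the 16 lower ones. Of all genes in that class 16.8% were lower, so 15 of 44 is above the share of the class as a whole. The median log2 fold change of these 44 was -0.20, against -0.08 over all genes of the class. The part of transcript length in these calls was not tested.

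The lower ones came from each complex. In complex I, 7 of 22 were lower, led by the accessory subunits Ndufa3 (log2 fold change -0.69 ± 0.08, SE; adjusted p = 0.000188), Ndufs6 (-0.48 ± 0.08) and Ndufa11 (-0.41 ± 0.09). Ndufa3 had 26.9, 25.6, 22.5 and 25.8 CPM in D, against 42.0, 37.4, 40.3 and 43.0 CPM in M, a wide gap between the groups. In complex III, 2 of 4 were lower, Uqcrb (-0.35 ± 0.09) and Uqcrq (-0.22 ± 0.08), both small accessory subunits. In complex IV, 2 of 8 were lower, Cox6a2 (-0.89 ± 0.27), an isoform typical of heart and skeletal muscle that averaged 10.7 ± 4.39 CPM in D and 19.9 ± 1.34 CPM in M, and Cox8a (-0.23 ± 0.08). In complex V, 5 of 13 were lower. Atp5k, the e subunit that helps hold ATP synthase dimers together, had 23.3, 17.9, 14.7 and 17.2 CPM in D, against 38.1, 31.9, 31.4 and 35.3 CPM in M (-0.90 ± 0.13; adjusted p = 0.000714, edgeR). Atpif1, an inhibitor of ATP hydrolysis by the enzyme, had a log2 fold change of -0.39 ± 0.09, and Atp5g2, a gene for the c ring, -0.34 ± 0.08. The calls of Ndufa3, Ndufs6, Ndufa11, Uqcrb, Atp5k, Atpif1 and Atp5g2 remained with any 1 library left out. That of Uqcrq ended without any library but D replicate 1 (adjusted p from 0.0829 to 0.144), that of Cox8a without any but D replicate 1 or M replicate 2 (0.0835 to 0.111) and that of Cox6a2 without D replicate 2 or any M library (0.0540 to 0.0747). The 13 mitochondrially encoded subunits were not analysed here.

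Assembly factors of the chain gave 4 higher and 4 lower of 43, a share of 18.6%, beside 34.7% of all tested genes. Nubpl, which delivers iron-sulfur clusters to complex I, was higher in D (log2 fold change 0.71 ± 0.14), as were Tmem70 (0.34 ± 0.08), which helps assemble complex V, and Ndufaf7 (0.34 ± 0.09), a methyltransferase for complex I. Coa7 (-0.62 ± 0.12), Cox17 (-0.48 ± 0.09), a copper chaperone of complex IV, and Foxred1 (-0.30 ± 0.07) were lower. Of 15 regulators of mitochondrial gene expression 3 were higher and 4 lower (46.7%, again beside 34.7% of all tested genes). Ppargc1a, the coactivator PGC-1alpha, averaged 0.441 ± 0.0772 CPM in D and 1.54 ± 0.142 CPM in M (SD, n = 4 each; log2 fold change -1.79 ± 0.24, adjusted p = 0.000418, edgeR), a low level in both groups. Polrmt, the mitochondrial RNA polymerase, was lower (-0.62 ± 0.14), as was Tfam, which packages and transcribes mitochondrial DNA (-0.31 ± 0.10), a call that ended without any single library but D replicate 1 (adjusted p from 0.0536 to 0.0823). Gabpa and Gabpb1, the subunits of GA-binding protein, were higher (0.25 ± 0.06 and 0.27 ± 0.07), as was Yy1 (0.30 ± 0.07), but Gabpa and Gabpb1 turned negative with curated transcripts alone.

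Among enzymes next to the cycle, Me2, the mitochondrial NAD-dependent malic enzyme, was the one call of 5 tested genes (0.22 ± 0.06, adjusted p = 0.0169, edgeR), lost without D replicate 2 (0.0572) or M replicate 4 (0.0598), and Aco1, the cytosolic aconitase, had a log2 fold change of -0.25 that did not pass. Of 17 genes of the list of carriers and itaconate, 4 were higher and 1 was lower (29.4%). The share called of all tested genes was 34.7%. Acod1, which makes itaconate from the cycle intermediate aconitate in activated macrophages, had 87.2, 161, 116 and 135 CPM in D, against 54.9, 65.1, 68.0 and 48.6 CPM in M. Every D library lay above every M library (1.08 ± 0.18, adjusted p = 0.00205, edgeR), a larger difference than that of any cycle enzyme. Slc1a5, a glutamine importer of the plasma membrane, had 220, 161, 136 and 188 CPM in D, against 332, 288, 371 and 352 CPM in M (-0.93 ± 0.14, adjusted p = 0.000851, edgeR). Got2, the mitochondrial aspartate aminotransferase, was higher (0.31 ± 0.06).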

How the data were processed

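Oligo(dT)-captured RNA of 4 diabetic and 4 healthy first-phase cultures was sequenced as DNA nanoballs. Per the labels' design text, SOAPnuke 1.5.6 filtered the reads and HISTA2 2.1.0 (so written) placed them on mm10. Quantifier, annotation release and strand setting were not given in the sources used here. For each RefSeq transcript the authors deposited estimated counts without normalization, 37.3% to 40.8% of them whole. The authors' TPM and FPKM values are scaled by transcript length, per the file headers. The deposited signal column of normalized counts was checked to be the rounded-up estimated count over a library factor (0.953 to 1.063) and was otherwise not used. The deposited group means (8 columns) were not used.

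Estimated counts of 60072 transcripts were summed per gene and rounded. Genes with too few counts were left out by filterByExpr (minimum count 10, minimum total 15), leaving 12839. Differences were tested by robust quasi-likelihood F tests in edgeR 4.0.16 (R 4.3.3) with TMM factors, Benjamini-Hochberg adjustment over all 12839 genes and a threshold of 0.05; the script was tested on simulated data. CPM use TMM-scaled library sizes (factors 0.913 to 1.01 in D, 1.03 to 1.05 in M). The biological coefficient of variation was 12.4%. No replicate pair was within sampling noise (per-gene chi-square 6.49 to 67.0). Same-numbered D and M libraries deviated together (correlations 0.115 to 0.182; other pairs -0.178 to 0.0735), a pairing that comes from the data and the shared numbers in the labels. Alternatives were DESeq2 1.42.0 and its factors, upper-quartile factors, library totals, limma 3.58.1 (voom, with quality weights, and on log2 FPKM and TPM with a pseudocount of 1 or 0.1), other filters, other transcript choices, the replicate block and leaving out each library; leaving out D replicates 1 and 3 together was chosen after seeing the data. Near-identical copies were sought with BLAST 2.17.0 (at least 95% identity over 200 bases). Promoters and coordinates are from RefSeq on GRCm38.p6.

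Genes named with values in each library were called members with groups that did not overlap, and within each role the 2 members with the largest absolute log2 fold change and the 2 with the highest mean TPM; of other lists, up to 3 called genes a direction with the lowest p. Some genes of those lists are not reported here. The members and lists were chosen with earlier results of these data known, and Dlst, Ndufa5 and the Cs transcripts were added after their values were seen.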

Additional observations from a re-analysis of the deposited data

Results flagged for a closer look

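Of 102 sets of 4 libraries (51 genes in D and in M), 7 held a library far from the other 3 by Dixon's test at the 95% level, where chance gives about 1 in 20. In D, Idh1 reached 226 CPM in replicate 3, against 181 to 187 CPM in the others. Ogdh reached 213 CPM in D replicate 1, against 194 to 196 CPM, and Ndufa2 reached 37.4 CPM in the same library, against 24.4 to 25.1 CPM. In M, replicate 1 was high for Mdh1 (140 CPM, others 120 to 122 CPM), Cox4i1 (266 CPM, others 229 to 232 CPM) and Cox6c (79.1 CPM, others 70.7 to 71.1 CPM). Idh2 reached 93.2 CPM in M replicate 4, against 84.1 to 85.5 CPM in the others. Without D replicate 1, Ndufa2 passed the threshold as lower in D (log2 fold change -0.33, adjusted p = 0.00577, edgeR).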

How the results depend on the processing

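Over all genes, 4456 calls became 2052 with the most abundant transcript alone and 2531 with curated transcripts only. The 2233 higher calls became 1362 and 1358 on the FPKM scale, 1453 and 1448 on the TPM scale, 1088 with the most abundant transcript and 1325 with curated ones; the 2223 lower calls became 3346 with library totals, 964 and 1206. Leaving out 1 library gave 3458 to 5369 calls, 1710 to 2865 higher and 1583 to 2504 lower. Of the 51 members, 9 calls became 15 with quality-weighted voom, 2 with the most abundant transcript and 5 with curated ones, and 2 to 12 with 1 library left out. The 3 higher became 5 with DESeq2's factors or Wald test, 6 with quality-weighted voom and 1 with library totals, FPKM, TPM or the most abundant transcript (1 to 6 with 1 library left out); the 6 lower became 1 and 3 by transcript choice (1 to 9). The replicate block gave 10 member calls, adding Uqcrfs1, and changed no other member's call.

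Among the genes named with values, signs turned for 8 uncalled genes near 0. They also turned by transcript choice for 3 called genes, Cs, Gabpa and Gabpb1. With 1 library left out, log2 fold changes ran from -0.0111 to 0.0657 (Mdh2), -0.0522 to 0.0829 (Pck2), -0.0742 to 0.0205 (Ndufa4), -0.0694 to 0.0179 (Ndufb8), -0.0419 to 0.0354 (Cox4i1), -0.114 to 0.0521 (Cycs), -0.137 to 0.0181 (Atp5a1) and -0.0462 to 0.0933 (Atp5b). Mdh2 gave -0.00955 with upper-quartile factors, -0.0907 with library totals, -0.0948 and -0.0953 on FPKM, -0.0800 and -0.0803 on TPM and -0.000283 with the most abundant transcript. Pck2 gave -0.0139 and -0.0960 with those factors, -0.0524 with quality weights, -0.0949 and -0.0986 on FPKM, -0.0817 and -0.0834 on TPM, and -0.128 without D replicates 1 and 3. Without these libraries, Ndufa4 gave 0.00375 and Cycs 0.0271. Cox4i1 gave 0.00482 and 0.00481 with DESeq2's factors and test. Atp5b gave -0.0193 and -0.0985 with upper-quartile factors and totals, -0.00860 with voom, -0.00351 at a minimum count of 50, -0.114 on FPKM, -0.0987 and -0.0988 on TPM, -0.0116 with the most abundant transcript and -0.00779 with the replicate block. Cs gave -0.12 and -0.14, Gabpa -0.40 and Gabpb1 -0.54 and -0.0834 by transcript choice. The cause was not tested. Depth limits Pcx most, with 45 estimated counts in its lowest library.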
